A study of Drosophila melanogaster with 6 samples.

Results

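The fate regulator genes sina and tramtrack (ttk) were examined in a targeted DamID profile of Klumpfuss (Klu) from the adult Drosophila midgut. They were taken as every peak listed under either symbol in the peak tables, which gave 2 of the 1122 peaks in the coherent set and 2 of the 1250 peaks in the semicoherent set, 1 for each gene in each set. In DamID a DNA adenine methylase (Dam) is fused to a chromatin protein, the A of nearby GATC sites is methylated, and fragments between methylated sites are recovered by enzyme digestion, PCR and sequencing. The Klu-Dam flies are given as esgts, UAS-Flp and UAS-Klu Dam, and the Dam-only flies as esgts, UAS-Flp and a UAS-Dam control. The paper's methods name a minimal heat-shock promoter and a STOP cassette, and no UAS, for both Dam transgenes. There were 3 libraries of each group and 6 in all. Flies of both groups were kept at 18 °C and then induced for 24 h, by the paper's methods through a shift to a higher temperature. Each library came from 30 to 40 midguts by the labels. The replicate sets were isolated on different dates.

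Several features limit this system as a model of Klu binding. The driver esg-Gal4, held in check by a temperature-sensitive Gal80, acts in Esg-positive stem and progenitor cells, where the Flp recombinase removes a STOP cassette in front of the transgene. This driver acts in stem cells and enteroblasts alike, and the DNA came from whole midguts, so these cell types cannot be told apart. The Klu fused to Dam was supplied by a transgene on top of the endogenous protein. Read counts came from the 3 Klu-Dam libraries alone. Dam-only counts were not used here, so the background of the methylase cannot be set beside the sina and ttk values, and the calls of both peaks are those of the authors.

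Sina is a RING-domain E3 ubiquitin ligase. With the adaptor Phyllopod (Phyl) and the F-box-like protein Ebi it marks Ttk for degradation, a pathway first worked out in the R7 photoreceptor of the eye and in sensory organ precursors. Ttk is a BTB-domain zinc-finger repressor that holds back neural fate, and in the midgut it holds back enteroendocrine (EE) fate. Alternative splicing gives the Ttk69 and Ttk88 proteins, which share the BTB domain and differ in their zinc fingers. Klu is a zinc-finger factor related to mammalian WT1.

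The coherent peaks held 19521921, 18287201 and 18347327 reads in Klu-Dam replicates 1, 2 and 3. The 10 highest peaks took 23.9%, 21.4% and 17.9% of these reads. Reads were scaled to CPM, counts per 1000000 reads that fell in coherent peaks, and the median peak stood at 155 CPM. The reads were amplified by PCR and are not counts of molecules, so Poisson errors stand for counting error alone. No source names separate cultures beyond the dissection sets, so the spread between the 3 libraries may be partly technical.

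At sina the peak lay inside the gene, over its internal transcript start. It ran over chr3L:16854806-16856667 of the Release 6 genome (dm6), 1862 bp on 3 GATC fragments, and had the same edges in the coherent and semicoherent sets. The gene (FBgn0003410, plus strand) spans 16853751 to 16858712, or 4962 bp, and has 3 annotated transcripts. Transcripts A and C start at 16853751, which is 1055 bp before the peak. Transcript B starts at 16855919, inside the peak and 1113 bp from its left edge. All of the transcripts encode the same protein of 314 residues, so the internal start changes the untranslated leader and not the ligase. Of the bases in the peak, 1425 (76.5%) were intronic in every sina transcript, 187 were in untranslated exon and 250 (13.4%) were in coding exon.

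At ttk the peak lay over 2 internal starts and touched no coding sequence. The coherent peak ran over chr3R:31724991-31725829, 839 bp on 3 GATC fragments. The gene (FBgn0003870, plus strand) spans 31713867 to 31735392, or 21526 bp, with 8 annotated transcripts from 4 starts. Transcripts B and C start 5 bp inside the left edge of the peak, at 31724996, and transcripts A and D start at 31725780, 49 bp before its right edge. The start of E and F lies 11124 bp before the peak, and that of G and H lies 573 bp after it. Each start is paired with both 3′ ends of the gene, which give proteins of 813 and 643 residues, so the starts under the peak are annotated for both protein forms. Intron in every transcript made up 453 bp (54.0%) of the peak and untranslated exon 386 bp (46.0%).

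**Figure D1:**
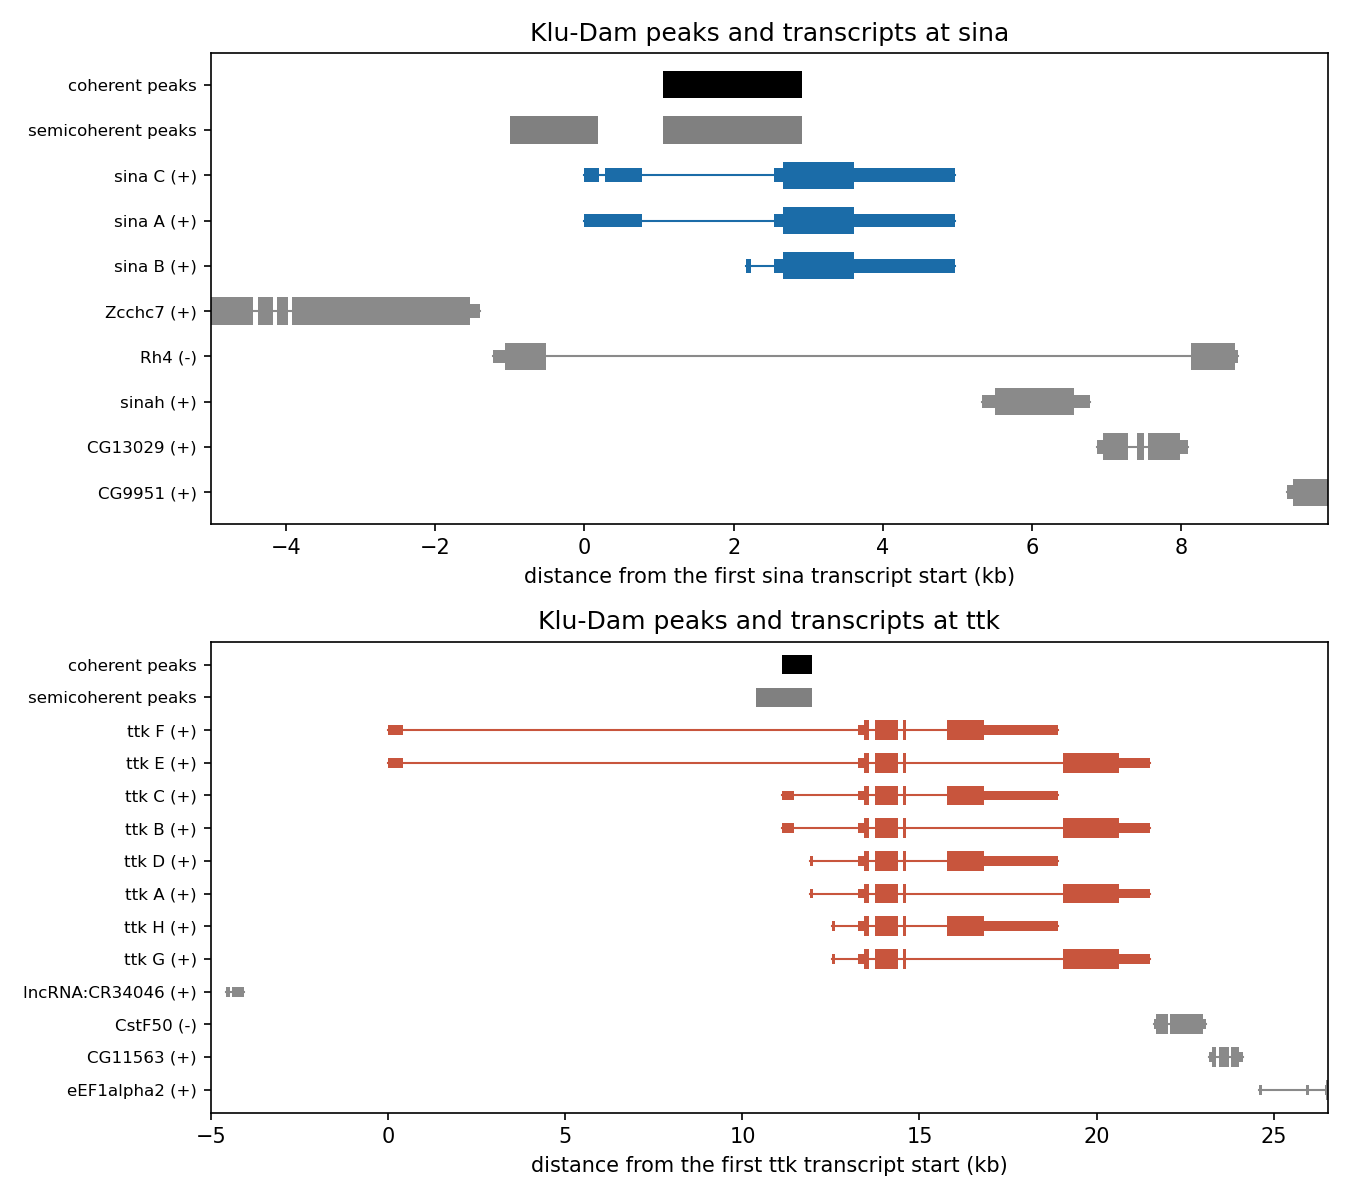
Maps of sina (upper) and ttk (lower), with distance from the first transcript start of each gene in kb on the x axis. Black bars are coherent peaks, grey bars in the row beneath are semicoherent peaks, coloured models are the transcripts of the 2 genes and grey models are other genes with their strand. Tall boxes are coding exons, low boxes are untranslated exons and thin lines are introns. The sina peak covers the start of transcript B, and the ttk peak covers the starts of B and C and of A and D.

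Windows around the starts under the coherent peaks, and around the first sina start, are shown. Where the reads fell within a coherent peak was not measured. Each window runs from 250 bases before the start to the first 20 bases of the transcript, on the plus strand and 5′ to 3′. Capitals mark GATC, the site that Dam methylates. The sequences are those of the Release 6 reference.
sina transcript B, chr3L:16855669-16855938, wholly inside the peak: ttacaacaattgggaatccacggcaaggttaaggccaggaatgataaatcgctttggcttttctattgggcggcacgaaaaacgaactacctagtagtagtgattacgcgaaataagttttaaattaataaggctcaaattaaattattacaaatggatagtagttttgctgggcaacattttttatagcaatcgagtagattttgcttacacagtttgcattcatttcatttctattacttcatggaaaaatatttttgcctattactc
sina transcripts A and C, chr3L:16853501-16853770, outside the coherent peak: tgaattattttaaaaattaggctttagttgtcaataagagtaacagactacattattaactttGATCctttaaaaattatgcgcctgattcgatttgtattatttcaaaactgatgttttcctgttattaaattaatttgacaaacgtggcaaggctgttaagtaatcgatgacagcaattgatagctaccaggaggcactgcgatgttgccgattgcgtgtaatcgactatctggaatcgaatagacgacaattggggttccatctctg
ttk transcripts B and C, chr3R:31724746-31725015, with 25 bases in the coherent peak: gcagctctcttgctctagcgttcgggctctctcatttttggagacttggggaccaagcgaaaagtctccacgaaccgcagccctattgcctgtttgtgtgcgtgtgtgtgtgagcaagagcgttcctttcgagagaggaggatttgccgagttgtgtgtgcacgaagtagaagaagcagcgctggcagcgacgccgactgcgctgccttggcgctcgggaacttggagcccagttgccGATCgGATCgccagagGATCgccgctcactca
ttk transcripts A and D, chr3R:31725530-31725799, wholly inside the peak: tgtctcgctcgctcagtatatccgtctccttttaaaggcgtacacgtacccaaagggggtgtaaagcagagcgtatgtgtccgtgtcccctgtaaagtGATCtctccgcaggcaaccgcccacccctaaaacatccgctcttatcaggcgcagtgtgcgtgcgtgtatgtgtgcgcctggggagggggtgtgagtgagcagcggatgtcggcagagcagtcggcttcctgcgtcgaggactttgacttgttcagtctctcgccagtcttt

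The sina and ttk windows differed in base composition and in where Dam could act. The window of sina B had 33.7% GC and 0 GATC sites, and it lay within a single 984 bp fragment, the longest of the 3 fragments of the peak. The other sina window had 35.2% GC and 1 GATC site. The ttk windows had 58.1% GC with 3 GATC sites for B and C and 56.7% GC with 1 GATC site for A and D. At the B and C start of ttk the sites are clustered. The coherent peak begins at the middle one of the 3, and the start lies between it and the last, in a fragment of 11 bp. The remaining ttk fragments were 628 and 200 bp long, and those of sina 727 and 151 bp. Over whole peaks the difference in composition was smaller, with 42.6% GC at sina and 45.5% at ttk, against a median of 45.4% over all coherent peaks.

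The edges of the peaks are shown because they set what each count could include. Each run has the GATC of the edge in capitals, with 12 bases on either side.
sina left edge, chr3L:16854792-16854819: ttatgtgtgtgcGATCtgtgtctgtgtt
sina right edge, chr3L:16856654-16856681: tgtgctaccgccGATCctgcagtgctcc
ttk right edge, chr3R:31725816-31725843: tcaactaaaattGATCctctctcccgca
ttk left edge of the semicoherent peak, chr3R:31724241-31724268: acatatttttatGATCctcgtcatattt

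The sina and ttk peaks shared several features that their choice by gene symbol did not fix. Each held a transcript start, as did 38.1% of all coherent peaks. Each held a start downstream of the first start of its gene, against 13.5% of all coherent peaks, and each lay wholly inside a gene, against 60.2%. The combination of an internal start and a place inside a gene was met by 2 of the 2 peaks and by 7.49% of the coherent set. Each spanned 3 GATC fragments, which was the fewest in any coherent peak and was found in 9.36% of them, against a median of 6. At ttk 1 of the 3 was only 11 bp long, and the semicoherent ttk peak spanned 5. With 2 peaks these shares are a description, and no test was made on them.

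The sina peak stood at 84.3, 102.8 and 94.3 CPM in Klu-Dam replicates 1, 2 and 3, from 1645, 1880 and 1731 reads. The 3 libraries lay close together, with the highest 1.22 times the lowest. The mean was 93.8 ± 9.28 CPM (SD, n = 3), and the peak ranked 747th of 1122 by mean CPM. Its coefficient of variation (CV) was 9.89%, against a counting error of 2.39% and a median CV of 16.7% over all coherent peaks.

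The ttk peak was lower and varied more. It stood at 23.8, 36.7 and 58.7 CPM in replicates 1, 2 and 3, from 464, 672 and 1077 reads. Replicate 3 was 2.47 times replicate 1, with replicate 2 between them. The mean was 39.7 ± 17.7 CPM (SD, n = 3), at rank 997 of 1122. The CV of 44.4% was far above the counting error of 3.85%, and 93.2% of coherent peaks had a lower CV.

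**Figure D2:**
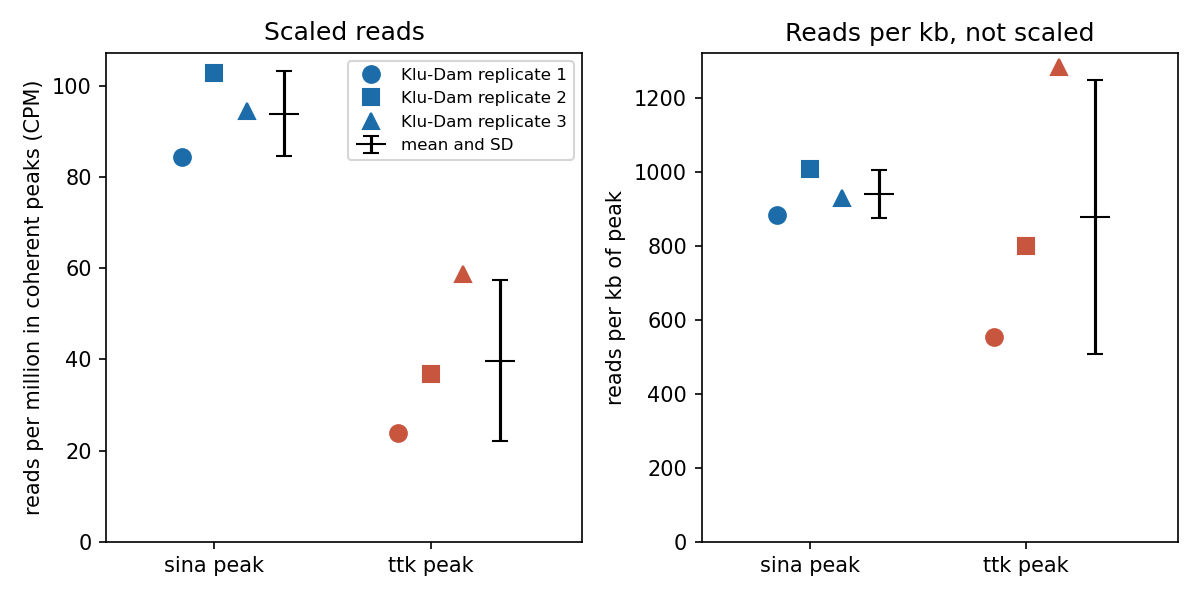
Level of the sina peak (blue, left) and the ttk peak (red, right) in the 3 Klu-Dam libraries, with the mean and SD beside the points. The left panel gives CPM and the right panel gives reads per kb of peak. In CPM all sina points (84.3 to 102.8) lie above all ttk points (23.8 to 58.7), and per kb the ttk points (553 to 1284) span the sina points (883 to 1010).

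**Figure D3:**
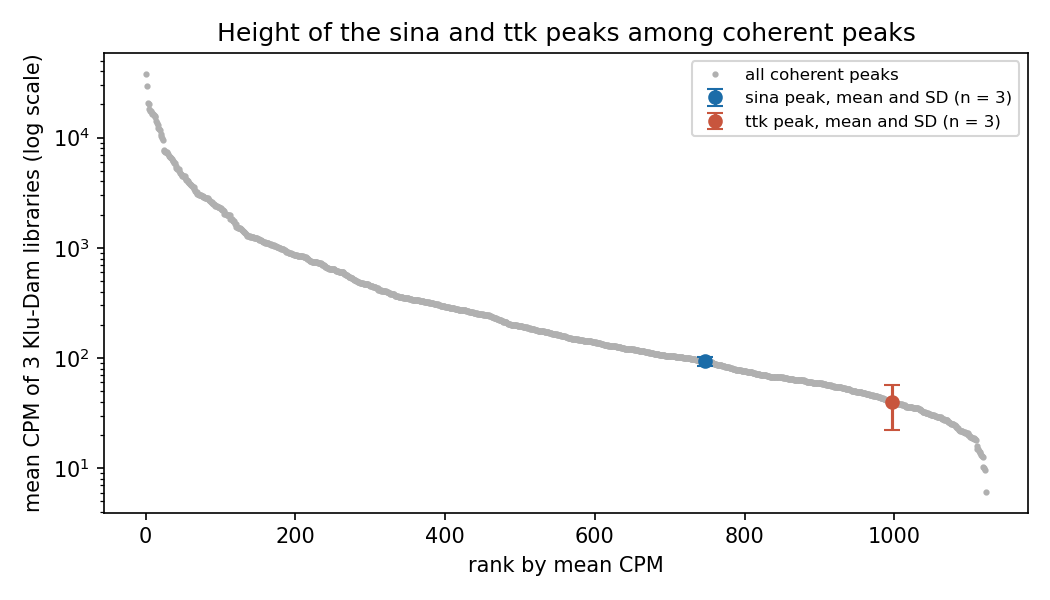
Mean CPM of each of the 1122 coherent peaks (log scale) against its rank. The sina peak at rank 747 and the ttk peak at rank 997 are marked with mean and SD (n = 3), and both lie below the median of 155 CPM.

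Between the 2 genes, reads per peak were higher at sina in 3 of 3 libraries. The ratio of sina over ttk was 3.55, 2.80 and 1.61 in replicates 1, 2 and 3, with a mean log2 ratio of 1.33 ± 0.59 (SD, n = 3, exact two-sided sign-flip test, p = 0.25). With 3 libraries 0.25 is the smallest p that this test can give, so it could not pass 0.05. The difference was smaller per kb of peak, where the sina peak held 883, 1010 and 930 reads and the ttk peak 553, 801 and 1284, so that the ratio was 1.60, 1.26 and 0.72. Per kb, sina was higher in replicates 1 and 2 and ttk in replicate 3, and the mean log2 ratio was 0.18 ± 0.59 (SD, n = 3, exact two-sided sign-flip test, p = 0.75). By reads per kb the peaks ranked 827th (sina) and 861st (ttk) of 1122.

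The difference between replicates 3 and 1 was set against peaks of like height. At sina replicate 3 over replicate 1 gave a log2 ratio of 0.16. Among the 453 other coherent peaks within a factor of 2 of its height the median was 0.21, with an SD of 0.60 across peaks. The sina value was near the middle of these. At ttk the ratio was 1.30 on the log2 scale. Among the 315 other peaks within a factor of 2 of ttk the median was 0.24 with an SD of 0.59. Of these, 14 were at or above the ttk value, with ttk itself not counted. Of all coherent peaks 53, ttk included, were at or above it. The ttk peak was therefore among the peaks with the largest excess of replicate 3, but it did not stand alone. Each replicate set had its own isolation date, so replicate and date cannot be told apart.

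**Figure D4:**
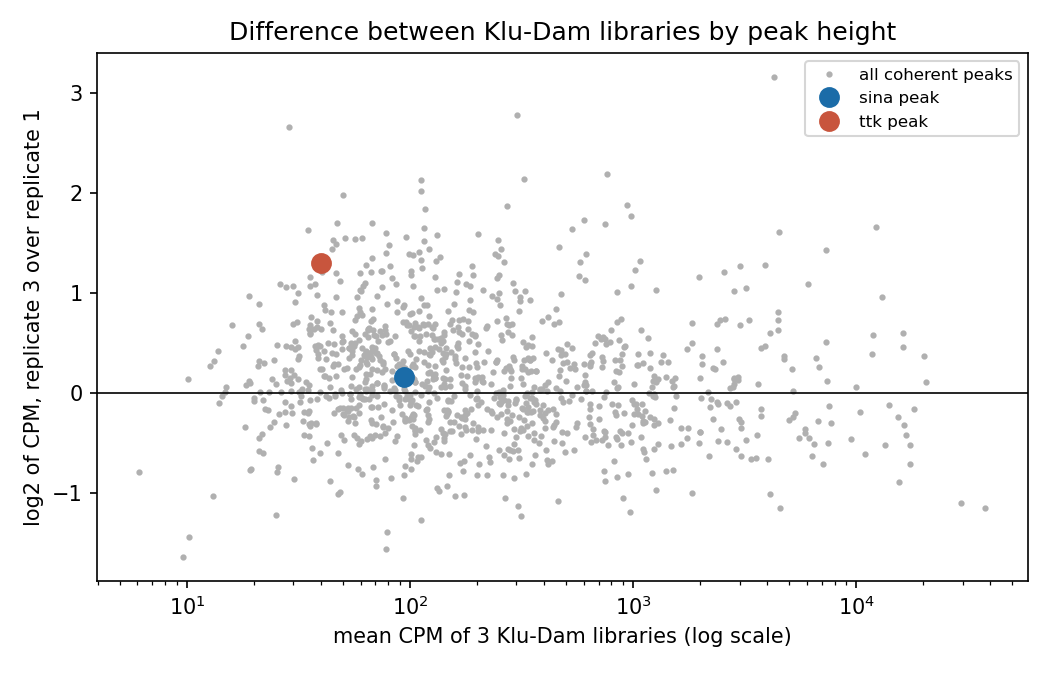
Log2 ratio of CPM in Klu-Dam replicate 3 over replicate 1 against mean CPM (log scale), with a grey point for each coherent peak. The sina peak (blue) at 0.16 lies within the bulk of the points, and the ttk peak (red) at 1.30 lies near the upper edge of the peaks of its height.

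The nearest profiles over the 3 libraries were those of genes outside the list of 38 EE pathway genes read below. Only 12 of the 1122 coherent peaks were listed with a gene of that list, so most peaks lie outside it. By Euclidean distance in log2 CPM over 3 Klu-Dam libraries, the 3 peaks closest to sina included those listed with Ac13E (0.115), an adenylyl cyclase, and Spn42De (0.124), a serpin. The peak at ttk was closest to those of Msp300 (0.153), a nesprin, AIF (0.172), a mitochondrial flavoprotein, and ACC (0.304), acetyl-CoA carboxylase. The Msp300 peak held 508, 639 and 1103 reads in replicates 1, 2 and 3, nearly the same numbers as ttk. With 3 libraries this likeness is a description of height and spread.

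The semicoherent set covered more sequence at each gene, with no Dam-only counts to set the added reads against. At ttk the semicoherent peak began 736 bp further to the left and ran over chr3R:31724255-31725829, 1575 bp on 5 fragments. It held 522, 685 and 1198 reads in replicates 1, 2 and 3, or 39.9 ± 18.0 CPM with semicoherent reads as the total (SD, n = 3), at rank 1061 of 1250. The added 736 bp accounted for 58, 13 and 121 of these reads, and 88.9%, 98.1% and 89.9% lay in the coherent part. The added stretch thus had 78.8, 17.7 and 164 reads per kb, against 553, 801 and 1284 in the coherent peak, and most reads lay over the stretch with the 2 internal starts in every library.

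At sina the semicoherent set held the same peak, with 86.9 ± 8.65 CPM (SD, n = 3) at rank 782 of 1250, and a further peak over the upstream start. This upstream peak, at chr3L:16852748-16853929, was 1182 bp long on 7 fragments and covered the start of transcripts A and C. It held 275, 522 and 518 reads in replicates 1, 2 and 3, or 21.9 ± 7.58 CPM (SD, n = 3), at rank 1200 of 1250. Per kb it had 233, 442 and 438 reads, against 883, 1010 and 930 in the peak over transcript B. The peak over the internal start thus had more reads per kb than the peak over the upstream start in 3 of 3 libraries. These are values of whole peaks, on 3 and 7 GATC fragments, with no Dam-only counts beside them. The upstream peak was listed under CG9715 (Zcchc7 in the reference, a zinc-knuckle protein gene) at 399 bp, and under neither sina nor Rh4, although it overlaps exons of sina by 179 bp and of Rh4 by 492 bp.

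The sina locus is nested, which bears on how its peak is named. The genes sina, sinah and CG13029 all lie within the span of Rh4 (FBgn0003250, minus strand, 16852527 to 16862517), which encodes a rhodopsin of R7 photoreceptors. The sina peak was listed with both sina and Rh4 at a distance of 0, and it overlapped 437 bp of sina exon and 0 bp of Rh4 exon. The paralogue sinah (FBgn0259794), an E3 ligase related to Sina, begins 2412 bp after the peak and was in neither table. The next peak to the right, chr3L:16863872-16866064, held 6075, 5912 and 4448 reads in replicates 1, 2 and 3 (292 ± 43.6 CPM, SD, n = 3). It was listed under Rh4 at 1354 bp, but overlapped CG9951 and Lmpt, a LIM-domain gene, and it lies 5159 bp beyond the end of sina.

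The naming of the ttk peak differed between the tables. In the coherent table ttk was given the interval 31726402 to 31735392, which begins at the start of transcripts G and H, and the peak was placed at a distance of 1411 bp, measured from its left edge. In the semicoherent table ttk had its full reference interval and a distance of 0. Such a change of interval between the tables was found for 1 of the 2 genes and for 0.181% of the 1659 identifiers in both. Shortened intervals were more common, as 191 of 1649 matched identifiers in the coherent table (11.6%) had an interval inside the reference gene. By the coherent table the ttk peak would be upstream of the gene, whereas the reference places it inside. The closest other gene was CstF50, 9673 bp away, and the nearest coherent peak to the gene, at mir-1014, was 18008 bp from ttk and held 263, 288 and 231 reads (13.9 ± 1.63 CPM, SD, n = 3).

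Short words were searched in both peaks, on both strands. They were GCGTGGG and GCGGGGG, core words of WT1/EGR-type zinc fingers, and GTGGGAA, a core of the Notch effector Su(H). GCGTGGG and GTGGGAA share the letters GTGGG and can overlap. Each word had 0 matches in the sina peak and 0 in the ttk peak. In windows of the width of the sina peak at the midpoints of all 1122 coherent peaks, 19.6% held GCGTGGG, 11.5% held GCGGGGG and 20.2% held GTGGGAA. In windows of the width of the ttk peak the shares were 8.20%, 5.88% and 10.1%. No position weight matrix for Klu was used here, and a word that is not found says only that these letters are not in the peak.

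The wider EE pathway was read from a list of 38 genes. Of the 38, 11 were listed in the coherent table, against 9.36% of the 17687 annotated genes. As sina and ttk were chosen because they were listed, they are no evidence in this count. Of the remaining 36 genes 9 were listed, but the list was itself drawn up with earlier results of these data known. The count of 9 is therefore not independent of the data either. The genes of the list were longer, with a median length of 11.8 kb against 1.71 kb for all genes, and the listed ones were longer (26.7 kb) than those not listed (5.12 kb). Length therefore moves with the count, and its part in the count was not tested. In the module that degrades Ttk, the ligase gene sina and the substrate gene ttk were listed by choice (2 of 5). The adaptor gene phyl lay 57769 bp from the nearest coherent peak and ebi 30019 bp, and sinah was not listed.

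The other genes of the list are given by group, beside a share of 9.36% over all annotated genes. The groups are small and differ in gene length, and no difference between them was tested. None of the 6 proneural genes of the list was listed (0 of 6). These were sc, ac, l(1)sc and ase, their partner da and the antagonist emc, and emc was the nearest to a coherent peak at 5112 bp. None of the 5 Ttk partners, among them Mi-2 and CtBP, was listed (0 of 5). Of the 7 EE factors, Ptx1 was listed, a homeodomain gene of EE subtypes, whereas pros, the homeodomain marker of EE cells, lay 35153 bp from a peak. Of the 7 Notch genes, the coactivator gene mam and the Notch inhibitor gene numb were listed. A further Notch gene, neur, which encodes an E3 ligase for Delta, was overlapped by a coherent peak of 2854, 3107 and 2371 reads but was not listed with it. Of the 4 EGFR/Ras genes 3 were listed, namely Egfr, pnt and aop. The Slit receptor gene robo2 was listed (1 of 2 Slit/Robo genes), as were both progenitor factor genes, esg and klu itself.

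Among the 12 coherent peaks listed with these 11 genes, sina stood 8th and ttk 11th by mean CPM. A further coherent peak overlapped Egfr without being listed with it, at 79.5 ± 17.8 CPM (SD, n = 3). It is left out of the order, where it would fall between sina and pnt. The order ran aop (1188 ± 171 CPM), esg (1083 ± 256), numb (195 ± 39.2), Ptx1 (189 ± 39.0), Egfr (178 ± 71.4), robo2 (120 ± 21.7), mam (110 ± 23.0), sina (93.8 ± 9.28), pnt (74.9 ± 36.2), the other robo2 peak (56.4 ± 7.83), ttk (39.7 ± 17.7) and klu (31.5 ± 3.94), all with SD and n = 3. The libraries of sina overlapped in range with those of the robo2 peak at 120 CPM, mam and pnt, and those of ttk with pnt, the lower robo2 peak and klu. Within libraries, sina was below the higher robo2 peak in 3 of 3, with ratios of sina over robo2 of 0.72, 0.72 and 0.94 in replicates 1, 2 and 3. Likewise ttk was below pnt in 3 of 3, with ratios of ttk over pnt of 0.48, 0.63 and 0.50. Against the other peaks that overlapped in range, the sign differed between libraries for both sina and ttk. None of these pairs was tested. The only neighbours in the order whose libraries did not overlap were esg and numb. Replicate 3 was above replicate 1 in 10 of the 12 peaks and in 57.9% of all coherent peaks. The peaks of ttk, pnt and Egfr had the highest log2 ratios, at 1.30, 1.22 and 1.09. Of the 12 peaks sina had the lowest CV (9.89%), and that of ttk (44.4%) was exceeded by pnt alone (48.3%).

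**Figure D5:**
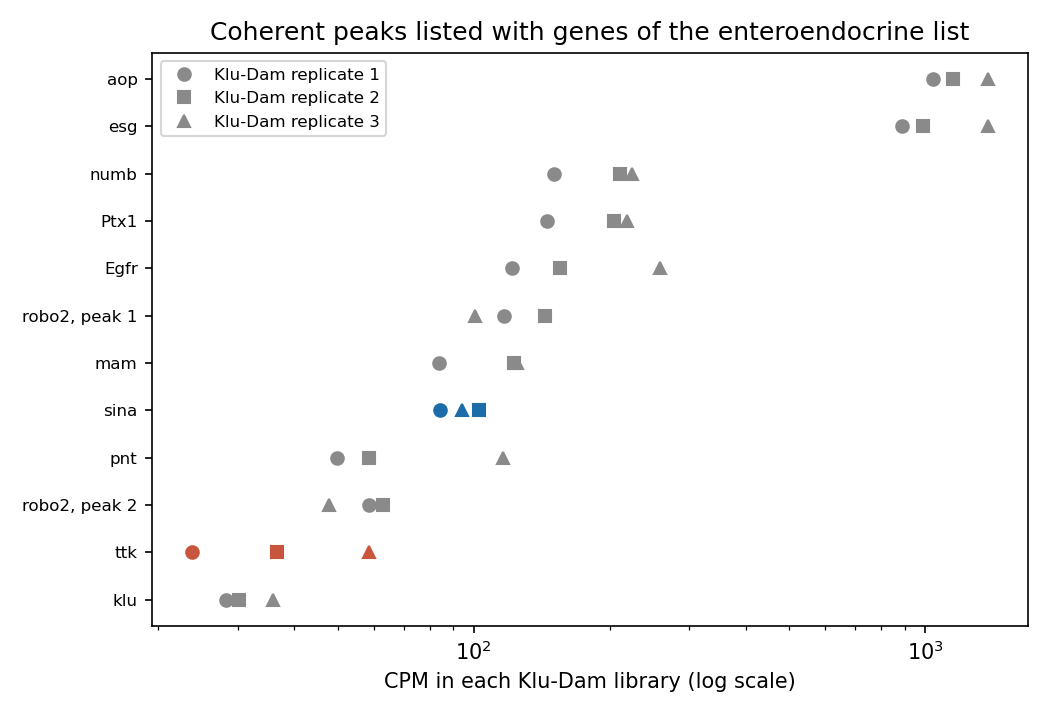
CPM in each of the 3 Klu-Dam libraries (log scale) for the 12 coherent peaks listed with 11 genes of the EE list, in order of mean CPM. Circles, squares and triangles are replicates 1, 2 and 3, with sina in blue, ttk in red and other genes in grey. The sina points (84.3 to 102.8) overlap those of the higher robo2 peak, mam and pnt. The ttk points (23.8 to 58.7) overlap those of pnt, the lower robo2 peak and klu.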

How the data were processed

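Targeted DamID was analysed from 3 Klu-Dam libraries. Alignment by the authors was to UCSC dm6 with bowtie2 within damidseq_pipeline. They took log2 ratios over Dam-only on GATC fragments, called peaks per replicate, filtered for reproducibility by IDR between replicates 1 and 2, and attached genes with their own script. HOMER is named in the submitters' processing notes. The deposited tables give raw read counts per peak for Klu-Dam, not divided by depth or Dam-only signal, and other columns as the authors computed them (gene interval and distance in bp). The rules behind coherent and semicoherent, and how reads were counted, are not given in the sources used here. The coherent set held 1667 gene identifiers, the number of genes that the paper reports near its reproducible peaks. The semicoherent set held 1858. Columns were assigned by replicate number, and 0 sample columns went unused.

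Entries were reduced to distinct peaks. All peak edges fell on GATC sites of the Release 6 reference, and semicoherent starts, deposited 1 or 2 bp past the site, were moved back to it. Positions are 1-based. CPM used reads in the peaks of the set as total, which is not the depth of the library. Genes were matched by identifier, then by symbol. Overlaps needed 1 bp. The sina over ttk ratio was tested by exact sign flips, checked on simulated data. Named were sina and ttk, genes listed with, overlapping or next to their peaks, the list genes near a peak with sinah and phyl, and the 3 nearest profiles of each, of which 1 is not reported here. Other list genes were named to fill out their groups after their values were seen. The genes and lists were chosen with earlier results of these data known. Alternatives were other scaling totals, the semicoherent set, reads per kb or per fragment, other distance rules and leaving out each replicate. The tools were matplotlib 3.10.9, scipy 1.17.1, pandas 2.3.3, numpy 2.4.6 and Python 3.11.15.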

Additional observations from a re-analysis of the deposited data

How the results depend on the processing

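Of 48 alternatives 42 left their result within the replicate spread, or within a factor of 1.5 for counts, CVs and ranks. Not all of them were free to move. Per GATC fragment the log2 ratio of sina over ttk had to stay at 1.33, since each peak spans 3 fragments. Results without 1 replicate share their other libraries with the main result. With the read totals of the study as the scaling total, sina was at 51.3 and ttk at 21.6 CPM, since reads outside peaks then count in the total. Without the 10 highest peaks in the total, sina was at 118.8 CPM. Per kb of peak, the log2 ratio of sina over ttk was 0.18, against 1.33 per peak. The CV of sina was 4.12% with median-of-ratios scaling and 6.07% without replicate 1. Leaving out each replicate in turn gave 89.3 to 98.6 CPM for sina, 30.3 to 47.7 for ttk and 1.08 to 1.66 for the log2 ratio of sina over ttk. The CVs of the semicoherent peaks were an alternative chosen after seeing the data. No paired analysis was possible because Dam-only counts were not used here, and the comparison of Klu-Dam with Dam-only was not run for the same reason.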
